A study of Monopterus albus with 3 samples.

Results

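The gonad transcript models of *Monopterus albus*, the swamp eel, include genes that were assembled on very short pieces of the genome. Transcripts with the same Cufflinks gene identifier form 1 locus, described by the transcript of longest coding sequence (CDS), and a spliced locus has at least 2 coding segments, called coding exons below. Spliced loci were selected when they lay on a scaffold whose last annotated base was below 100 kb. The rule found 1294 such loci on 1121 scaffolds, which is 8.32% of the 15547 spliced loci among 63334 loci in all. The comparison set was the 10813 spliced loci on the 198 scaffolds whose annotation reached 1 Mb or more, and the other 3440 spliced loci lay on scaffolds between these limits. The last annotated base is a lower bound of the scaffold length, so a longer scaffold with no annotation toward its far end also counts as small.

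RNA was taken from 3 gonad types, the ovary of a female, the ovotestis of an intersex (hermaphrodite) fish and the testis of a male, with 1 poly(A) library each and no replicates. The authors' annotation holds 1 coverage value per transcript for the series and none per gonad, so no comparison between gonads was possible, and no cell type marker could be checked because the identifiers carry no gene names. Coverage (cov) is Cufflinks' estimate of how many times the reads cover each base of a transcript.

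In this fish the gonad passes from ovary through an intersex stage to testis. A gene is transcribed as a whole, its introns are then removed, and the coding exons that remain are read in triplets from start to stop codon. Exons and their order tend to be kept when a gene is duplicated, whereas introns change length much faster. A genome assembled from short reads ends a scaffold where it can no longer be extended, often at repeats or at places where the copies of a region differ, and a gene that crosses such an end is seen only in part. Sequences with almost the same bases, such as the maternal and paternal copies of a region or recent duplicates, can also end up as separate short scaffolds.

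Most of these scaffolds were tiny and held 1 gene model. The median last annotated base, taken over loci, was 1075 bp, from 177 to 99697 bp. Of the 1121 scaffolds, 1015 had 1 spliced locus, 67 had 2, 22 had 3 and 17 had 4 or more, with a maximum of 6. For 725 loci (56.0%) no other locus of any kind was annotated on the scaffold. Spliced loci made up 12.2% of all 10568 loci on small scaffolds, against 28.0% of the 38551 loci on scaffolds of 1 Mb or more. Strands were nearly even, with 641 loci read from the plus strand and 653 from the minus. The CDS was a whole multiple of 3 in all but 2 of the 1294 loci.

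Spliced loci on small scaffolds had short ORFs. Their median CDS was 274.5 bp (quartiles 195 and 437), against 1086 bp (567 and 1887) on scaffolds of 1 Mb or more. A fit across all 15547 spliced loci, with 3 scaffold classes and standard errors clustered on the scaffold, gave a difference of -1.71 on the log2 scale (95% interval -1.79 to -1.64), or 3.28-fold shorter. A CDS under 300 bp was found at 714 of the small-scaffold loci (55.2%), while the share over all spliced loci was 14.4%. Small scaffolds cannot hold loci with a long span, so the fit was repeated, after the data were seen, on loci that span less than 2 kb from first to last coding base. Under this limit the median span was still 481 bp on small scaffolds against 1073 bp on large ones. The repeat therefore does not remove what scaffold size sets. The 1089 loci under the limit on small scaffolds had a CDS 1.47-fold shorter than the 2229 on large ones (log2 difference -0.56, 95% interval -0.63 to -0.49). Intervals of this kind cover the spread between scaffolds only, since loci are not replicates.

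The number of coding exons was low as well. At 813 of the 1294 loci (62.8%) there were 2 coding exons, the fewest that the selection allows, against 20.3% of all spliced loci. A further 225 had 3, 88 had 4 and 51 had 5. Only 51 loci (3.94%) reached 10 or more, while 32.6% of all spliced loci did. The median was 2 exons on small scaffolds and 7 on scaffolds of 1 Mb or more, and the fit gave a log2 difference of -1.32 (95% interval -1.38 to -1.26). With log2 CDS in the fit the difference was -0.13 (-0.16 to -0.090). Over all loci the exons themselves were of similar length, with a median of the locus medians of 111 bp against 126 bp. Within classes of CDS the order was the other way. It was 91.5 bp against 86 bp at a CDS under 300 bp, and 154.5 bp against 129 bp at a longer CDS.

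Median CDS rose with each class of scaffold size. On the 622 scaffolds ending below 1 kb, 626 loci had a median CDS of 219 bp and 77.6% had 2 exons. Between 1 and 2 kb the median CDS was 336 bp, between 2 and 10 kb 351 bp, between 10 and 50 kb 411 bp, and between 50 and 100 kb 798 bp. The share with 2 exons did not fall steadily, with 51.9% between 1 and 2 kb, 59.5% between 2 and 10 kb, 49.4% between 10 and 50 kb and 28.8% between 50 and 100 kb. In that last class, 139 loci had a median of 4 exons and 27.3% had at least 10, and the median CDS was below the 933 bp of scaffolds between 100 kb and 1 Mb. Scaffolds ending below 10 kb held 1001 of the loci, so they set the values given for the whole group.

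**Figure D1:**
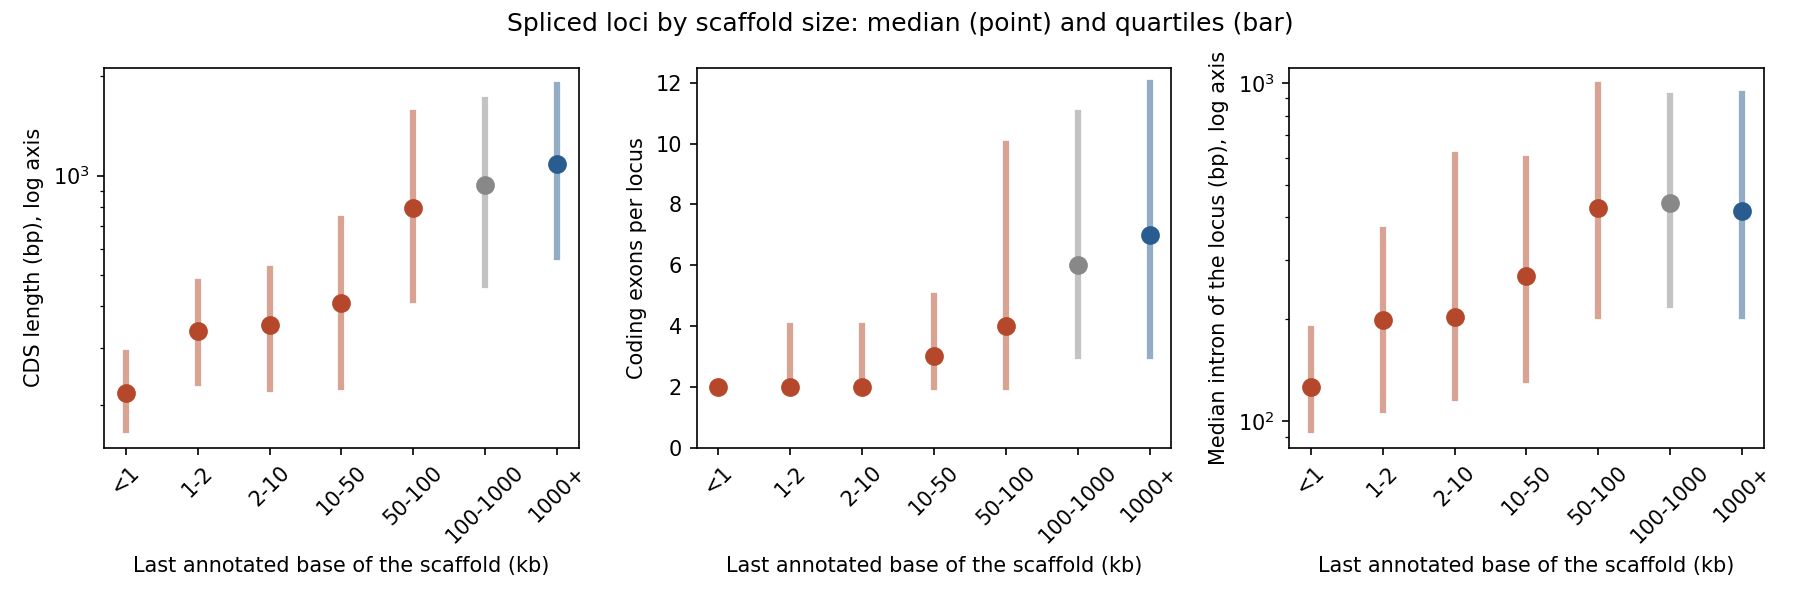
CDS length, coding exons and the median intron of each locus (points, median over loci; bars, quartiles) for spliced loci in 7 classes of scaffold size, with small scaffolds in red, scaffolds of 100 kb to 1 Mb in gray and larger ones in blue. The median CDS rises from 219 bp below 1 kb to 798 bp at 50 to 100 kb, and the largest scaffolds stand at 1086 bp.

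Long genes did occur on the larger of these scaffolds. On scaffold 607 the longest CDS, 5814 bp split over 37 exons, ran from 33940 to 54212 on the plus strand, with a cov of 317. It also had the most exons, and its last coding base was 2687 bp before the last annotated base of the scaffold. Scaffold 554 carried a CDS of 4485 bp in 28 exons from 45964 to 67455 on the minus strand (cov 30.1), and scaffold 536 a CDS of 3567 bp, also in 28 exons, from 47385 to 68642 on the minus strand (cov 121). Both lay more than 10 kb from the last annotated base of their scaffolds. The other long ones had few exons. On scaffold 558 a CDS of 4419 bp from 26248 to 38555 had 4 exons, and 1 of them alone measured 3756 bp. On scaffold 617 a CDS of 3329 bp from 8927 to 14017 had 3 exons, the longest of 3012 bp, and its length was not a multiple of 3. Their cov was low, 3.55 and 9.01. Next by exon number came scaffold 586 with 24 exons between 41815 and 54664 and scaffold 655 with 22 between 24189 and 36052.

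Introns on small scaffolds were short. Over loci, the median of the locus medians was 165 bp (quartiles 104 and 330), against 419 bp (204 and 929) on scaffolds of 1 Mb or more, a log2 difference of -1.22 (95% interval -1.33 to -1.11). The 2842 introns ran from 54 to 57561 bp. The selection favors short introns, as an intron must fit within its scaffold. On scaffolds ending below 1 kb the median was 126.5 bp (quartiles 94.0 and 187) and the longest intron 710 bp. From 50 to 100 kb the median was 427 bp, no shorter than the 419 bp of scaffolds of 1 Mb or more. Without the scaffolds ending below 10 kb, the log2 difference was -0.26 (-0.51 to -0.013). Among loci spanning less than 2 kb in each class it was -0.59 (-0.66 to -0.51), with spans still shorter on small scaffolds. The longest introns are exceptions to the rule of short ones. An intron of 57561 bp lay in a 14-exon locus on scaffold 546 between 16638 and 85916, 1 of 37907 bp on scaffold 669 in a locus with a CDS of only 174 bp, and 1 of 36025 bp on scaffold 592 between the 2 exons of a 339-bp CDS.

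The position of introns within codons was also described. Of the introns on small scaffolds, 44.1% lay between codons (phase 0), 36.0% after the first base of a codon (phase 1) and 19.9% after the second (phase 2). On scaffolds of 1 Mb or more the shares over 89121 introns were 47.3%, 30.6% and 22.1%. The order of the phases was thus the same. The shares were not tested against each other.

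Few loci on small scaffolds had alternative transcripts. At 1074 loci there was 1 transcript, at 176 there were 2, at 36 there were 3, at 6 there were 4 and at 2 there were 5. At least 2 were found at 220 loci (17.0%), against 47.5% on scaffolds of 1 Mb or more and 44.7% over all spliced loci. The fit gave a difference of -30.5 percentage points (95% interval -33.0 to -28.0), and of -13.6 (-16.0 to -11.1) with log2 CDS as a covariate. The gap was seen at few exons and not at many. With 2 exons, 65 of 813 loci had several transcripts (95% Wilson interval 6.32 to 10.1%), against 25.3% on the large scaffolds. With 6 to 9 exons it was 54.5% of 66 (95% Wilson interval 42.6 to 66.0) against 52.5%, and with 10 or more 56.9% of 51 (43.3 to 69.5) against 60.7%. Wilson intervals cover counting error only. Loci on 1 scaffold are treated in them as independent.

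Coverage of the transcript with the longest CDS was higher on small scaffolds over all loci, and the excess was found among short ORFs. The median cov was 103 (quartiles 23.2 and 410), against 78.3 (13.5 and 253) on scaffolds of 1 Mb or more, and the fit of log2(cov + 2) gave a difference of 1.02 (95% interval 0.82 to 1.22), 2.03-fold higher. At the 714 loci with a CDS under 300 bp the median was 166, against 36.1 at such loci on the large scaffolds. At the 580 loci with a longer CDS it was 58.7 against 84.9, and the log2 difference was -0.065 (-0.28 to 0.15). Without the scaffolds ending below 10 kb it was -0.098 (-0.46 to 0.26). Over all loci with log2 CDS as a covariate it was 1.15 (0.94 to 1.36), against 1.02 without that term. With FPKM in place of cov it was 1.73 (1.48 to 1.97). With cov summed over the transcripts of a locus, the median was lower on small scaffolds, 122 against 132, while the fitted log2 difference was 0.68 (0.49 to 0.88). Coverage peaked below 1 kb, at a median of 182, and was lowest between 10 and 50 kb, at 28.4. Cufflinks also gives a 95% interval for FPKM. Its half-width had a median of 29.5% of the value on small scaffolds and 16.7% on large ones. At a CDS under 300 bp it was 34.3% against 40.7%, and at a longer CDS 24.3% against 13.8%. Single values on small scaffolds were thus less precise over all loci and at a longer CDS, but not at a short one.

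**Figure D2:**
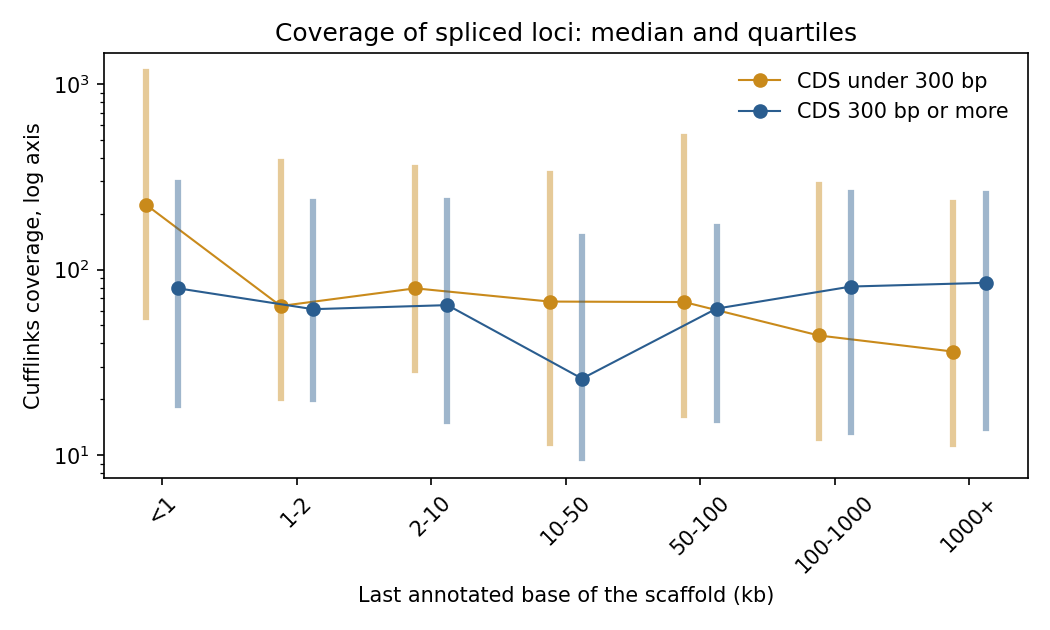
Cufflinks coverage (log axis; points, median; bars, quartiles) of spliced loci in 7 classes of scaffold size, split at a CDS of 300 bp. At a CDS under 300 bp the median is 224 on scaffolds ending below 1 kb and 36.1 on scaffolds of 1 Mb or more, while longer CDS have medians between 25.8 and 84.9.

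The most covered of these loci were extremely short. A cov of at least 10000 was found at 90 loci (6.96%), against 0.978% of all spliced loci and 0.361% of those on scaffolds of 1 Mb or more. Of the 90, 85 had a CDS under 300 bp and 69 lay on scaffolds ending below 1 kb. The highest value, 828249, belonged to a CDS of 90 bp in 2 exons on scaffold 23095, whose annotation ends at 177. Scaffold 14378 followed with 588424 for a CDS of 117 bp between 3 and 221, and scaffold 15593 with 575840 for a CDS of 90 bp between 19 and 263. The other 2 were not on the shortest scaffolds. Scaffold 841 had 550097 for a CDS of 39 bp between 1478 and 1766, and scaffold 1006 had 527276 for a CDS of 87 bp between 5376 and 5555. For these 5 the half-width of the FPKM interval ranged from 6.02% to 121% of the value. It was 41.7% on scaffold 23095 and widest on scaffold 1006. Cov is an estimate, and whether values this high are real read depth on models this short was not tested. The names and functions of the loci were not analysed here.

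Closeness to a scaffold end was measured from base 1, which is a true end. The lowest coding base lay within 1 kb of it at 873 loci (67.5%), against 5.98% of all spliced loci and 26 loci (0.240%) on scaffolds of 1 Mb or more. The selection favors this, as every position on a scaffold below 1 kb is that close, and 768 of the 873 were on scaffolds ending below 2 kb. At 608 loci (47.0%) the lowest coding base was among the first 200 bases, against 4.02% of all spliced loci. The last annotated base was a coding base of the locus at 910 loci (70.3%), against 6.64% of all, which the definition of that base favors. On scaffolds ending below 2 kb, 714 of 786 loci both began within 1 kb of base 1 and ended at the last annotated base. Over all spliced loci the share was 4.89%. Below 1 kb, the stretch from first to last coding base had a median of 84.1% of the length up to the last annotated base. The definition of that base favors a high share here too, and the share of the true scaffold length is not known.

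**Figure D3:**
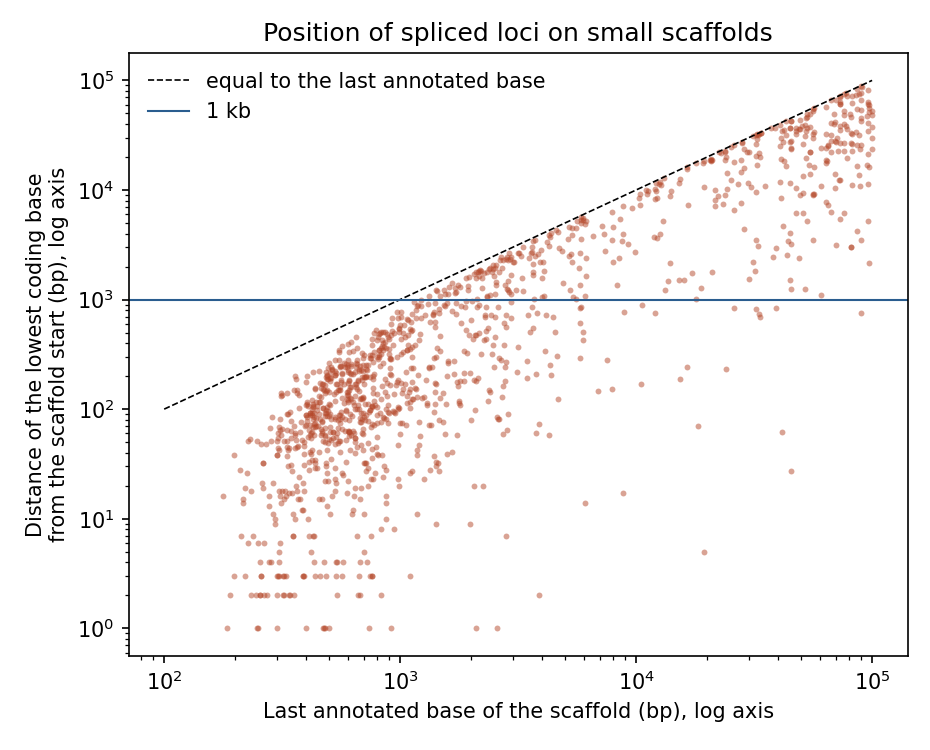
Distance of the lowest coding base from the scaffold start against the last annotated base of the scaffold (both log axes, bp) for the 1294 loci. Points near the dashed line start close to the last annotated base, and 873 points lie at or below the blue line at 1 kb.

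Scaffolds with room for several genes gave a different value. Between 10 and 100 kb, 16 of 293 loci (5.46%, 95% Wilson interval 3.39 to 8.69) lay within 1 kb of base 1. Counted by scaffold, 16 of 150 (10.7%, 6.67 to 16.6) had such a locus, against 26 of 198 (13.1%, 9.12 to 18.5) of the scaffolds of 1 Mb or more. Loci at the end had lower medians in both sets, a difference that was not tested. The median CDS was 382.5 bp at the 16 loci and 531 bp at the other 277, and on the large scaffolds it was 613.5 bp at 26 loci and 1089 bp elsewhere. Quartiles overlapped widely, 226 to 675 bp against 291 to 1167 bp between 10 and 100 kb. From 2 to 10 kb the order was the other way, with 453 bp at 89 loci near base 1 and 312 bp at 126 others.

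The largest number of spliced loci on a small scaffold was 6, found on 4 scaffolds. On scaffold 541 all 6 lay on the plus strand, and the longest of them had a CDS of 2181 bp in 16 exons from 54079 to 60956. Their cov ranged from 7.28 to 561, the highest at the locus that ends at the last annotated base, 90086. Scaffold 572 had 5 plus-strand loci and 1 minus-strand locus, with a CDS from 315 to 2232 bp. Scaffold 577 held 6 loci of 8 to 13 exons, with a cov from 6.74 to 943. On scaffold 621 cov ranged from 4.76 to 32395. Over all small scaffolds, 111 of 173 neighboring pairs of spliced loci (64.2%, 95% Wilson interval 56.8 to 70.9) were on the same strand, against 58.1% (57.2 to 59.1) of 10615 pairs on the large ones. These intervals overlap, and the share over all pairs was not computed. The median gap was 4331 bp against 13543 bp, which the selection favors, as a small scaffold cannot hold a wide gap.

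On both sides of the 100 kb limit loci ranged from few to many exons. The 2 scaffolds just below it were scaffold 530, ending at 99697 with 5 spliced loci of 2 to 10 exons and a CDS of 399 to 1722 bp, and scaffold 542, ending at 97207 with 1 locus of 7 exons and 837 bp. Just above it, scaffold 537 ended at 101010 with 1 locus of 34 exons and 5409 bp, and scaffold 517 at 101596 with 1 locus of 3 exons and 408 bp.

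Loci were next compared by the order of their exon lengths, which marks genes of related structure without the sequence. A locus was called shared if a run of 4 consecutive coding exons had the same lengths, to the base and in the same order, as a run in a locus on another scaffold of 100 kb or more. Of the 256 small-scaffold loci with at least 4 exons, 30 were called (11.7%, 95% Wilson interval 8.33 to 16.2), against 22.3% of all such spliced loci and 23.1% (22.1 to 24.0) of the 8050 on scaffolds of 1 Mb or more. A locus with more exons has more runs that can match, so the shares were also taken at like exon numbers. At 4 to 5 exons the shares were 4.32% of 139 (1.99 to 9.10) against 2.11%, at 6 to 9 exons 16.7% of 66 (9.57 to 27.4) against 16.4%, and at 10 or more 25.5% of 51 (15.5 to 38.9) against 36.0% (34.6 to 37.6). These intervals overlapped in each class. Counted per window of 4 exons, however, 6.09% of 1067 windows were shared (4.81 to 7.69), against 11.7% of all windows and 11.8% (11.6 to 12.1) on the large scaffolds. At 10 or more exons it was 6.49% (4.78 to 8.75) against 13.1% (12.8 to 13.3), with no overlap of the intervals, and at 6 to 9 exons 7.25% (4.74 to 10.9) against 7.76%. Windows of 1 locus overlap and are not independent. Runs also include first and last coding exons, which are cut at the ORF, so a model seen only in part can lose a match there. How far this sets the shares was not tested. With internal exons only, 24 of 117 small-scaffold loci were called (20.5%, 14.2 to 28.7), and no such share was taken on the large scaffolds.

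Among the 30 shared loci, introns of equal length were found only on scaffolds below 10 kb, a split chosen after the data were seen. Introns were compared with a single matched locus per run, though some runs were found on several larger scaffolds. At the 17 loci on scaffolds between 10 and 100 kb, 0 of the 76 introns inside the runs had the length of its counterpart. On scaffolds below 10 kb, 29 of 48 introns (60.4%) were equal to the base. Of the 13 loci there, 6 had every intron of the run equal, 2 had some and 5 had none. Scaffolds 2146 and 1486 alone gave 7 and 5 of the 29. A run of 8 exon lengths was found in each of these groups. The locus on scaffold 601 (23961 to 46042, plus strand, 13 exons, cov 425) shared exons of 229, 88, 102, 174, 100, 53, 68 and 109 bp with a 15-exon locus on scaffold 3, but its introns of 952, 2373, 1890, 657, 209, 560 and 497 bp stood against 147, 1136, 514, 641, 2085, 221 and 317 bp. The locus on scaffold 2146 (148 to 2383, plus strand, 10 exons, cov 609) shared exons of 80, 129, 89, 109, 99, 147, 239 and 147 bp with another locus of scaffold 3, and its introns of 115, 76, 98, 89, 96, 186 and 103 bp had the same lengths in both. The bases themselves were not compared.

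**Figure D4:**
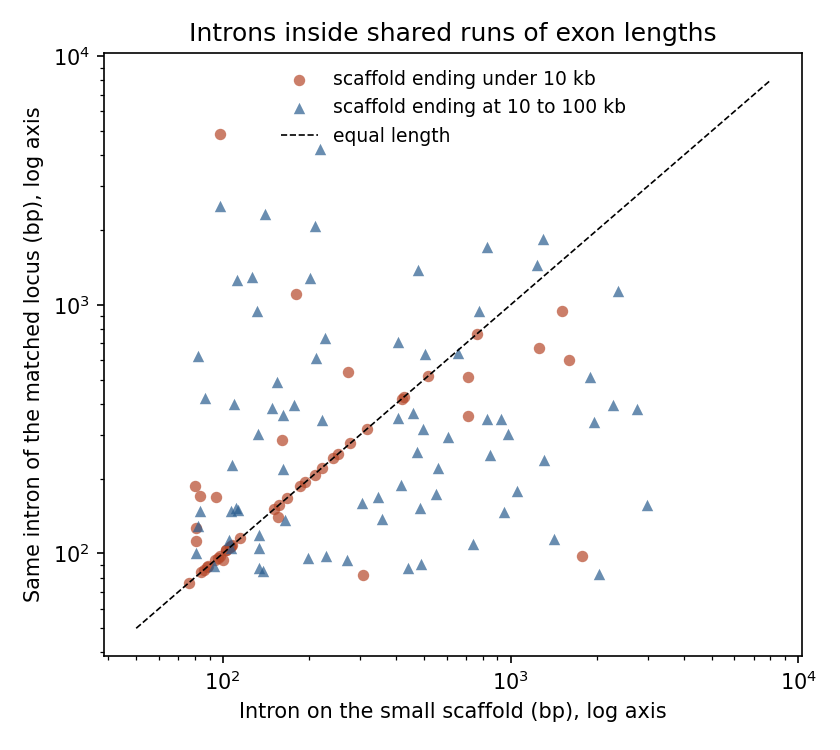
Each intron inside a shared run of at least 4 exon lengths, on the small scaffold (x axis) and in the matched locus of a larger scaffold (y axis), both in bp on log axes. Introns of scaffolds ending below 10 kb (circles) were equal to the base in 29 of 48 cases and lie on the dashed line, and those of scaffolds between 10 and 100 kb (triangles) were in 0 of 76, though a few lie close to it.

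The next longest runs, of 7 exons, came from scaffolds between 10 and 100 kb, and none of their introns were equal. They joined scaffold 600 (1247 to 17235, 21 exons) to scaffold 38, scaffold 641 (3427 to 12116, 11 exons) to scaffold 103, and scaffold 739 (232 to 2689, 9 exons) to scaffold 130. The run of scaffold 739 was found on 4 larger scaffolds and that of scaffold 600 on 3. The cov of the locus on scaffold 739 was 744 against 399 in the matched one. On scaffold 641 cov was 457 against 73.9, and on scaffold 600 it was lower than in its match, 4.002 against 54.7.

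Exact chains of introns were therefore searched for directly, a comparison added after the data were seen. A chain was 3 consecutive introns with the 2 exons between them, all 5 lengths equal to those of a locus on another scaffold of 100 kb or more. It was found at 26 of the 256 loci (10.2%, 95% Wilson interval 7.03 to 14.5), against 0.756% of all spliced loci with at least 4 exons and 0.472% (0.344 to 0.647) on scaffolds of 1 Mb or more. All but 1 of the 26 lay on scaffolds ending below 10 kb, where the share was 21.0% of 119 (14.7 to 29.2). Between 10 and 100 kb it was 1 of 137 (0.730%, 0.129 to 4.02), an interval that includes the share on large scaffolds. A shorter chain of 2 introns and the exon between them gave 71 of 481 loci (14.8%, 11.9 to 18.2), against 2.95% of all spliced loci with at least 3 exons. Of the 71, 68 lay on scaffolds ending below 10 kb. Between 10 and 100 kb it was 3 of 177 (1.69%, 0.578 to 4.86), against 2.52% on scaffolds of 1 Mb or more. Runs of 4 exons together with their 3 introns were equal at 7 of 256 loci, all on scaffolds ending below 10 kb, against 0.354% of all.

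**Figure D5:**
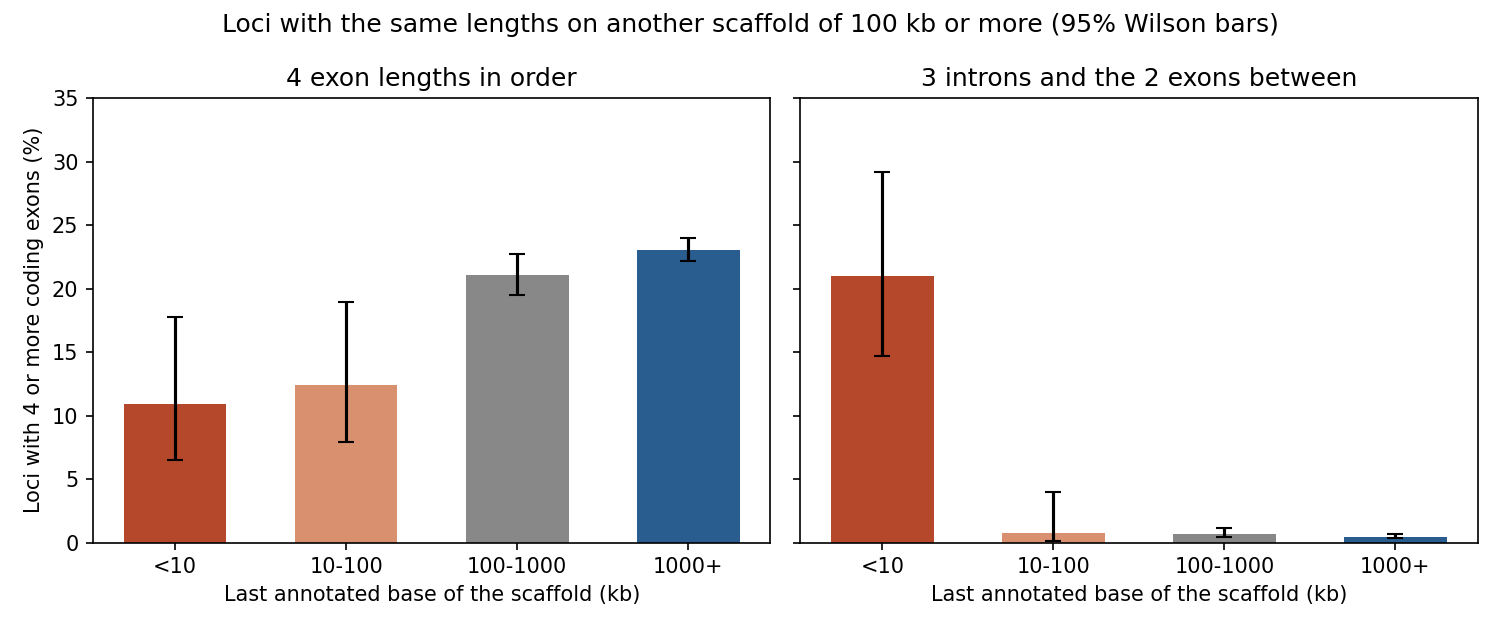
Share of spliced loci with at least 4 coding exons that have 4 exon lengths (left) or 3 introns and the 2 exons between (right) in common with a locus on another scaffold of 100 kb or more, by scaffold size (bars, percent of loci; whiskers, 95% Wilson intervals). Without regard to exon number, exon lengths are shared most on scaffolds of 1 Mb or more (23.1%, against 21.0% between 100 kb and 1 Mb). At like exon numbers, the intervals of loci shared on small scaffolds and on those of 1 Mb or more overlap. Exact chains of introns are shared most on scaffolds below 10 kb (21.0%).

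The 26 loci with a chain of 3 introns were shorter than the models they matched. The matched locus had more coding exons in 26 of 26 cases, with a median of 11 against 5, and a median CDS of 1482 bp against 514.5 bp. The selection favors this, as the median over spliced loci was 2 exons on small scaffolds and 7 on scaffolds of 1 Mb or more. At 23 of the 26 every intron of the small-scaffold locus was in the chain. The stretch from the first to the last equal intron had a median of 946.5 bp, from 520 to 2395 bp. It took a median of 71.3% of the scaffold up to its last annotated base. For 25 loci a single larger scaffold matched, and 23 different scaffolds were involved. The longest chain, of 9 introns over 2048 bp, joined the locus on scaffold 2146 (bases 263 to 2310) to bases 7463799 to 7465846 of scaffold 3, in a minus-strand locus of 14 exons. Scaffold 1486 followed with 7 introns over 2354 bp (203 to 2556), matching in lengths bases 1066871 to 1069224 of scaffold 20. For scaffold 1486, 2 larger scaffolds matched, and only scaffold 20 is described. Next was scaffold 1751 with 5 introns over 2395 bp (161 to 2555), matching bases 562110 to 564504 of scaffold 50.

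Coverage differed between the matched models. It was higher on the small scaffold in 21 of 26 pairs and lower in 5, with a median ratio of 1.64. On scaffold 2146 it was 609 against 79.8 in the matched locus, and on scaffold 1486 it was 336 against 321. The lowest ratio, 0.422, was found for scaffold 1006 and the highest, 7.64, for scaffold 2146. How reads that match both places were assigned is not stated, and its part in these values was not tested. Each value is that of the transcript with the longest CDS, and sums over transcripts were not compared for the pairs.

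Some larger loci were matched by several small scaffolds. A 13-exon locus on scaffold 6, from 6746396 to 6755461 on the plus strand, matched a chain of 4 introns on scaffold 3035 (bases 6753356 to 6754346) and another of 4 introns on scaffold 4438 (6754695 to 6755401). These blocks do not overlap. A locus on scaffold 1525 shared a run of 5 exon lengths with this 13-exon locus too, but with 0 of 4 introns equal. Another locus of scaffold 6, from 2668200 to 2676971, matched chains of 2 introns on scaffolds 5504 and 5158. A 20-exon locus on scaffold 405, from 153172 to 182132, was matched by 3 small-scaffold loci. Scaffold 1006 held 2 of them in the same order as on scaffold 405, from 849 to 3312 with a chain of 4 introns and from 3549 to 4302 with 2 introns. The third, on scaffold 3026 from 366 to 1119, matched the same 473 bp (158180 to 158652) as the latter, with the same CDS of 390 bp in 3 exons and nearly the same cov (129 against 128).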

How the data were processed

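The authors aligned reads of the 3 poly(A) libraries (ovary, ovotestis, testis) with TopHat to scaffolds of their draft genome, built transcripts with Cufflinks, picked an ORF for each by a hidden Markov model and trimmed exons to it. Untranslated exons are therefore absent, and first and last coding exons are cut at the ORF. The submitters' processing notes name Bowtie 0.12.7, Cufflinks 1.1.0 and TopHat 1.3.3, while the paper names another Cufflinks release. The deposited annotation has a Cufflinks score (not used), and text fields with FPKM, other estimates and cov per transcript, as 1 value for the series. The depth per library is unknown. The number in the identifiers runs over 171 series, whose median ratio of cov to FPKM ranged from 0.00123 to 0.470. Cov was used, but this range does not show whether cov or FPKM is comparable between the series.

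Ties for the longest CDS were broken by exon number. Introns are gaps between coding segments. Differences are least-squares fits over all spliced loci (statsmodels 0.14.6) with standard errors clustered on the scaffold, of log2 values (cov with a pseudocount of 2); no p-values were computed. The code for the fit and for the matching of exon lengths was run on simulated data, which is no test of the results. Python 3.11.15, numpy 2.4.6, pandas 2.3.3, scipy 1.17.1 and matplotlib 3.10.9 were used. The members, the limits and the rules for naming loci (the 5 with the longest CDS, most exons, highest cov or longest shared run, the 3 with the longest introns, and those on scaffolds with most loci or next to the limit) were chosen with earlier results of these data known. Chains of introns, their pairs with larger loci and the split at 10 kb were added later, and the loci named there were picked after their values were seen. No sequence is shown, because the genome was not used here.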

Additional observations from a re-analysis of the deposited data

How the results depend on the processing

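In all, 81 alternatives were run, of which 63 were planned and 18 added after the data were seen, and 57 of them were repeats of the 5 fitted differences, of which 55 kept their sign with a 95% interval that excluded 0. The other 24 concerned counts and shares, of which 14 stayed within the 95% interval of the value reported or, for the number of loci, within 1.5 times of it. Differences in CDS (log2, -1.87 to -0.56), exon number (-1.43 to -0.13), introns (-2.71 to -0.26) and transcripts (-33.6 to -10.3 percentage points) did so in every alternative run. All of these runs still compare classes of scaffold size, which limits the span of a locus. They therefore cannot show how much of a difference that size sets. The coverage difference turned to -0.065 with a CDS of at least 300 bp and to -0.098 without scaffolds below 10 kb, both with intervals that include 0, and rose to 1.74 for spans under 2 kb. The identifier series as a term left it at 1.04, log2 CDS as a covariate gave 1.15 and FPKM in place of cov gave 1.73. The number of loci was 580 with a CDS of at least 300 bp and 293 without scaffolds below 10 kb. The share within 1 kb of base 1 was 75.5% with a limit of 50 kb, 55.6% with 200 kb, 52.4% at a CDS of at least 300 bp, 5.46% without scaffolds below 10 kb, and 80.7% within 5 kb or 60.4% within 500 bp. Shared exon order was 20.5% of 117 loci with internal exons only, with no such share for large scaffolds, and 6.09% per window of 4 exons. Raising the large limit to 2 Mb cannot change the shares of small-scaffold loci and was not run for them. No paired analysis was possible because each gonad has 1 library and the values are not per library. True scaffold lengths were not used here, so the distance to the far end is not known.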

Other observations

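Scaffold 621 held a pair of loci, chosen after their values were seen, with the same coding exon lengths. Both lay on the minus strand, from 6256 to 8391 and from 27887 to 28931, with a CDS of 531 bp in exons of 102, 147, 126 and 156 bp. Their introns differed, 893, 630 and 82 bp in the first against 288, 117 and 109 bp in the second, and so did their cov, 32395 against 3858. The half-width of the FPKM interval was 50.2% of the value in the first and 1.21% in the second. Among loci with at least 3 coding exons they were the only ones of 481 on small scaffolds with all exon lengths equal to those of another locus on the same scaffold, and 0 of 9140 on scaffolds of 1 Mb or more had such a partner (95% Wilson upper bound 0.0420%).

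Small scaffolds also matched each other. A chain of 3 introns and the 2 exons between was shared with another small scaffold at 8 of 256 loci (3.13%, 95% Wilson interval 1.59 to 6.04), while a run of 4 exon lengths was shared at 2 of 256 (0.781%, 0.215 to 2.80). Matches to small scaffolds were not counted for loci on larger scaffolds. Whether these shares are particular to small-scaffold loci is therefore not known.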
